A study of Mus musculus with 1931 samples.

Results

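*Amn*, *Cubn*, *Lrp2*, *Lrpap1* and *Dab2*, which encode the endocytic receptors of the visceral endoderm (VE) and the proteins that help them work, were followed through single mouse cells. They are 5 of the 20999 genes in the table and were taken by name, for their known roles and with earlier results of these data known. The authors had already named *Amn* and *Cubn* among the leading genes of their VE-like cluster, so high levels of these 2 genes are no independent finding. Their levels were compared between cells of Rosette-to-Lumen stage embryoids (RtL-embryoids, 3D) and cells of flat (2D) cultures, measured by SMART-seq2 sequencing. Of 1931 wells, 1406 held a cell with at least 2500 genes above 0 and were kept.

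RtL-embryoids were built from 3 embryonic stem cell (ESC) lines. Kermit ESCs carry an *Oct3/4*_GFP transgene, 5-Factor ESCs carry doxycycline (DOX)-inducible *Cdx2*, *Tfap2c*, *Eomes*, *Gata3* and *Ets2*, and iGATA6 ESCs carry a lentiviral DOX-inducible *Gata6* together with mCherry. In 3D the inducible genes were switched on with 2 µg/ml DOX for 3 days, and cells were harvested after a further 24 h without DOX. Hand-picked embryoids were pooled and sorted by GFP, mCherry or CD40 staining onto plates 3, 4 and 5. In 2D, Kermit ESCs were kept in 2i/LIF without induction and sorted by GFP (plate 7). 5-Factor ESCs were converted to induced trophoblast stem cells (iTSC, plate 8) in medium with FGF4 and heparin and sorted by CD40 staining. iGATA6 ESCs with mCherry were converted to induced extraembryonic endoderm cells (iXEN, plate 9) in XEN cell medium and sorted by mCherry. Both conversions followed the same DOX schedule. Each of these 4 conditions is 1 sample, so no difference between conditions could be tested. Plates 3, 4 and 5 split a single pool, and their spread is technical. The embryoid pool was preselected for correct assembly, and its cells come from transgenic lines and not from embryos.

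The 3D wells fall into blocks of plate columns, and neither the labels nor the methods tie a block to a sort gate. The blocks were therefore checked against marker lists that leave out the 5 genes. All 8 listed VE markers (*Gata4*, *Gata6*, *Sox17*, *Sox7*, *Foxa2*, *Pdgfra*, *Hnf4a* and *Dkk1*) were highest in columns 9-16 and, in 2D, in iXEN. All 7 listed epiblast (Epi) markers were highest in columns 1-8, and all 8 listed extraembryonic ectoderm (ExE) markers in columns 17-24. The 10 leading genes of columns 9-16 nevertheless held 5 of the parietal endoderm list (*Col4a1*, *Srgn*, *Lama1*, *Sparc* and *Col4a2*), along with *Dab2* and *Amn* themselves, and none of the VE list. Of the 9 parietal endoderm genes, 6 had their highest 3D mean in columns 9-16. The other 3, *Fst*, *Thbd* and *Plat*, had it in columns 17-24. *Sparc* and *Srgn* alone averaged 59.9 and 29.1 TP10k in columns 9-16. The summed mean of the 9 parietal endoderm genes was 118.4 TP10k in columns 9-16, 1.493 in columns 1-8, 8.30 in columns 17-24, 154.3 in iXEN, 6.706 in ESC and 8.305 in iTSC, so it was high in the groups where the 5 genes were high, and its part in their levels was not tested. None of 9 yolk-sac VE genes, such as *Ttr* and *Afp*, was found in 10% of these cells. *Pou5f1*, the gene of Oct3/4, was still at a mean of 4.53 TP10k there. The blocks are therefore called by their columns and not by a cell type. The minimum kept 82.2% of the wells of columns 9-16 and of columns 1-8, 91.9% of columns 17-24, 77.5% of iXEN, 44.8% of ESC and 49.8% of iTSC. Median numbers of genes above 0 lay between 4823 and 5396 in the 3D blocks and between 8537 and 9093.5 in 2D.

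As background, cubilin (*Cubn*) is a very large extracellular receptor with no membrane anchor of its own. It is held at the cell surface by amnionless (*Amn*), and the complex of both is called cubam. Megalin (*Lrp2*) is a giant transmembrane receptor of the lipoprotein receptor family that works beside cubilin. The receptor-associated protein (*Lrpap1*) is a chaperone of the endoplasmic reticulum that keeps new receptors of this family from binding ligands too early. Disabled-2 (*Dab2*) is the adaptor that couples the tails of megalin and amnionless to clathrin. In the mouse embryo the receptors sit at the apical side of the VE, where they take up maternal proteins and lipids before a placenta works. The same set serves the kidney proximal tubule.

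The genes are unlinked or far apart in the genome (GRCm38, positions from Gencode vM21). *Amn* lies at chr12:111271095-111276426 on the plus strand, with 12 exons and 1701 bases in its longest coding transcript. *Cubn* lies at chr2:13276338-13491813 on the minus strand, with 67 exons and 11262 bases. *Lrp2* lies at chr2:69424340-69586065 on the minus strand, with 79 exons and 15460 bases. *Lrpap1* lies at chr5:35091501-35105766 on the minus strand, with 8 exons and 2981 bases. *Dab2* lies at chr15:6299788-6440712 on the plus strand, with 15 exons and 4663 bases. The annotation places *Gm13270* on the opposite strand within *Cubn*, and *Gm16311* and *Gm18888* opposite *Dab2*. The SMART-seq2 protocol does not mark strand, so reads in exons shared with such a partner cannot be told apart.

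The stretches of 250 bases before the RefSeq starts (GRCm38.p6) of *Amn*, *Cubn* and *Dab2* are shown because these 3 genes were close to 0 in ESCs and in columns 1-8 and high in columns 9-16 and in iXEN. Capitals mark the letters AGATAA or TGATAA, on either strand, which resemble the site bound by GATA factors.
Amn, chr12:111270846-111271095, plus strand: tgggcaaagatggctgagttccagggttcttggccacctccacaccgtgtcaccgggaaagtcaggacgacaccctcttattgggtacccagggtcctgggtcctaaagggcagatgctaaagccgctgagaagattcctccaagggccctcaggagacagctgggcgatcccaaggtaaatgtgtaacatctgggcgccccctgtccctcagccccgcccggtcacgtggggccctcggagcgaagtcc
Cubn, chr2:13491877-13492126, minus strand: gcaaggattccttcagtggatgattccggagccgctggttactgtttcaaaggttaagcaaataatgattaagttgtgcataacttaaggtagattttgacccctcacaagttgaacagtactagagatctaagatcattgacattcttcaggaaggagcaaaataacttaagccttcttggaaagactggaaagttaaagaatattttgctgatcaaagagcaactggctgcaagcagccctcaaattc
Dab2, chr15:6299539-6299788, plus strand: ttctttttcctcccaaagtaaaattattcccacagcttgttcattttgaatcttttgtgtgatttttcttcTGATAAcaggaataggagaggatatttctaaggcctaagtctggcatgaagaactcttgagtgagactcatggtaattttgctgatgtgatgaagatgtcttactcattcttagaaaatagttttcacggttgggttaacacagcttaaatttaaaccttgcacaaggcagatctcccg
The letters occurred at 1 place, in the *Dab2* window, and in no other of the 6 windows of the 5 genes (*Dab2* has 2 starts). They occur in 16.6% of all 32851 windows of the same length. The letters ACAATG or ACAATA, searched for SOX factors, occurred in none of the 6 windows and in 17.4% of all windows. Nor did TGTTTAC or TGTTTGC, searched for FOXA factors, which 7.29% of all windows hold. GTTAAT, searched for HNF1, occurred in the window of the second *Dab2* start and in 6.43% of all windows. These counts describe letters in short windows only. The GC content was 61.2% for *Amn*, 39.6% for *Cubn* and 36.8% for the first *Dab2* start.

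Cubilin, the binding receptor, was high in columns 9-16 and iXEN and near 0 in most other cells. TP10k denotes TPM rescaled to sum to 10000 in each cell. *Cubn* averaged 3.16, 3.07 and 3.95 TP10k on plates 3, 4 and 5 in columns 9-16. Over those cells its lowest value was 0, the median 3.10 and the highest 11.9. In iXEN the mean was 3.89, between 0.210 and 14.2 over the cells with a median of 3.50. It was above 0 in 98.1% of cells of columns 9-16 (exact 95% binomial interval 95.9 to 99.3%) and in 100% of iXEN cells (97.4 to 100%). Intervals of shares cover counting error only. In columns 1-8, 5 cells held it (1.59%, interval 0.519 to 3.68%), at a mean of 0.00142 TP10k. ESCs averaged 0.00119 and iTSC 0.00246 TP10k, with 9.86% and 13.5% of cells above 0. The intervals of these shares overlapped, 5.50 to 15.99% and 8.31 to 20.2%. Most of these cells held under 1 TPM, since the shares at 1 TPM or more were 2.11% of ESCs and 1.42% of iTSC. Columns 17-24 stood between, at 0.174, 0.385 and 0.264 TP10k on plates 3, 4 and 5. The order of the mean levels was iXEN, columns 9-16, columns 17-24 and then the other groups. The iXEN mean lay within the range of the plates of columns 9-16.

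Amnionless, which anchors cubilin, was likewise highest in iXEN and columns 9-16. *Amn* averaged 5.43, 5.48 and 4.09 TP10k on plates 3, 4 and 5 in columns 9-16. The cells ranged from 0 to 19.2 with a median of 4.56 TP10k, and 94.3% were above 0 (interval 91.1 to 96.6%). In iXEN the mean was 6.97 TP10k, over a range of 0 to 15.3 with a median of 6.48, and 99.3% of cells were above 0. *Amn* was thus higher in iXEN than on any plate of columns 9-16. In columns 1-8, 3 cells held *Amn* (0.955%) and the mean was 0.00398 TP10k. ESCs averaged 0.00670 TP10k with 6 cells above 0 (4.23%, interval 1.57 to 8.97%). In iTSC, by contrast, 62 cells held *Amn* (43.97%, interval 35.6 to 52.6%) at a mean of 0.169 TP10k and a highest value of 1.46. Both cultures were sequenced to similar numbers of genes, 9093.5 and 8537 in the median. The iTSC share was above the ESC share by more than counting error, while the level stayed far under that of iXEN. The summed VE marker list was at a mean of 0.0563 TP10k in iTSC and 0.0351 in ESCs, and its part in the *Amn* value was not tested.

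Megalin was found in nearly every cell of columns 9-16 and, at far lower levels, in many cells elsewhere. *Lrp2* averaged 1.61, 1.55 and 2.10 TP10k on plates 3, 4 and 5, with a range of 0 to 7.54 and a median of 1.48 over the cells. In iXEN the mean was 1.88, the median 1.64 and the range 0.256 to 6.69 TP10k. The iXEN mean lay inside the range of the plates. *Lrp2* was above 0 in 39.8% of cells of columns 1-8, 44.2% of columns 17-24, 61.3% of ESCs and 71.6% of iTSC. Its means in these groups were only 0.0627, 0.229, 0.0188 and 0.0670 TP10k. The order of the shares rested on values under 1 TPM. At 1 TPM or more, *Lrp2* was found in 35.2% of ESCs, 38.9% of columns 1-8, 41.9% of columns 17-24 and 56.7% of iTSC, so that ESCs had the lowest share as well as the lowest mean of these 4 groups.

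The chaperone *Lrpap1* was the most abundant of the 5 genes and the only member well expressed in all groups. In columns 9-16 it averaged 32.8, 30.8 and 38.3 TP10k on plates 3, 4 and 5, and the cells ranged from 0 to 71.3 with a median of 31.7. In iXEN the mean was 21.3, the median 20.5 and the range 0 to 67.6 TP10k, and that mean was below the mean of every plate of columns 9-16. Columns 1-8 averaged 2.61 TP10k with 88.8% of cells above 0. Columns 17-24 averaged 2.22, ESCs 1.85 and iTSC 1.58 TP10k. The 3D means of columns 1-8 (2.31 to 2.95 by plate) and of columns 17-24 (1.88 to 2.44) overlapped between plates. *Lrpap1* exceeded *Lrp2*, on this scale per transcript length, by 19.4 times in columns 9-16 (18.2 to 20.4 by plate) and by 11.4 times in iXEN.

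The adaptor *Dab2* was near 0 in columns 1-8 and ESCs and highest in iXEN. Columns 9-16 averaged 8.13, 7.18 and 8.995 TP10k on plates 3, 4 and 5, with a range of 0 to 23.5 and a median of 7.40. In iXEN the mean was 13.4, the median 12.2 and the range 1.37 to 52.05 TP10k, and that mean was above the mean of every plate of columns 9-16. Only 4 cells of columns 1-8 (1.27%) and 10 ESCs held *Dab2*, at means of 0.00470 and 0.00451 TP10k. In iTSC 45 cells were above 0 (31.9%, interval 24.3 to 40.3%) against 7.04% of ESCs (interval 3.43 to 12.6%). The iTSC mean was 0.0762 TP10k. Columns 17-24 averaged 0.646 TP10k, with 56 cells above 0 (15.9%).

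**Figure D1:**
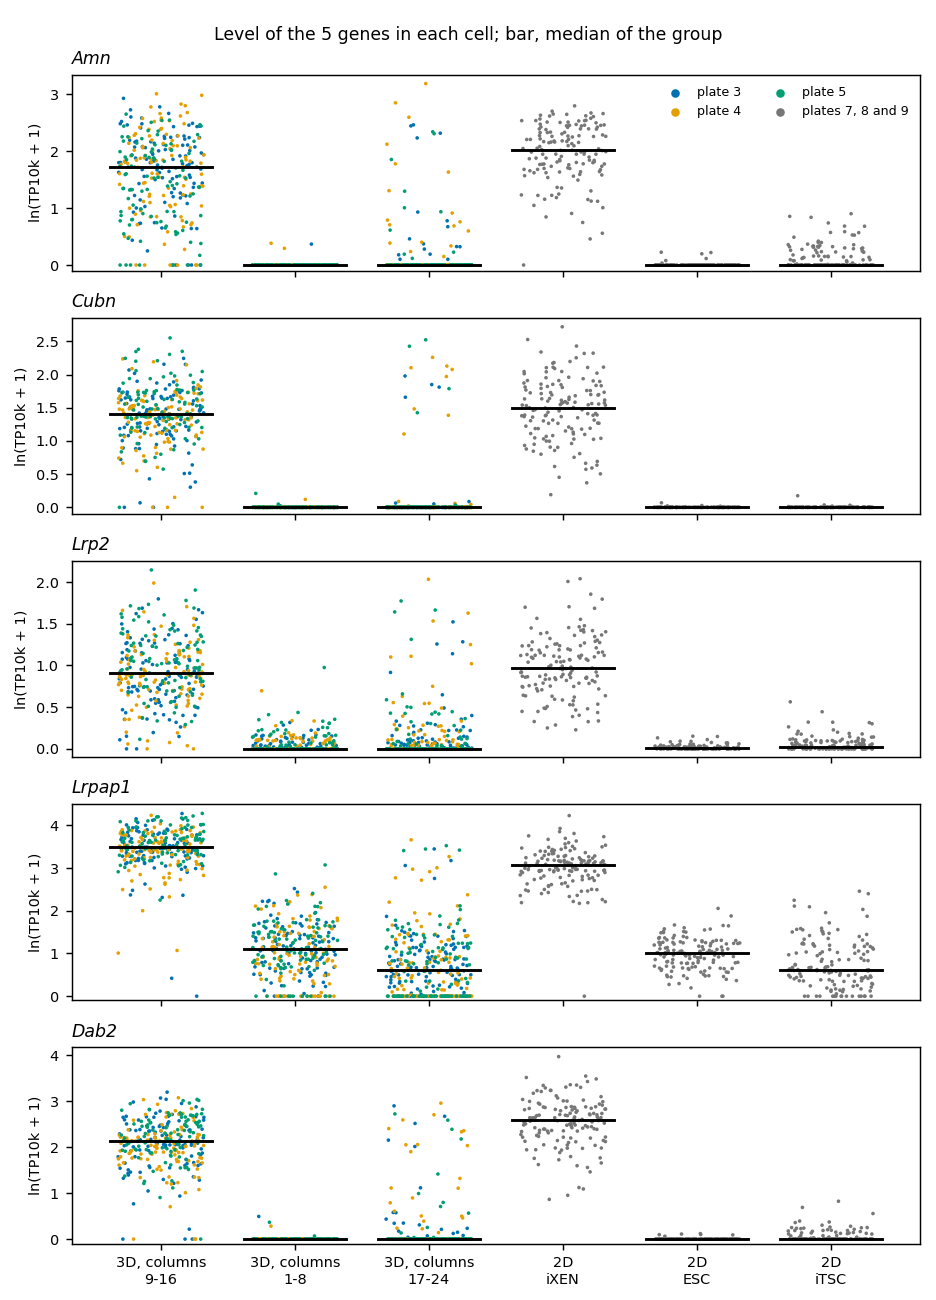
Level of each gene in every kept cell, as ln(TP10k + 1) on the vertical axis, with 1 panel per gene and 1 column of points per group; bars are group medians and colours are plates. Columns 9-16 and iXEN are high for all 5 genes, columns 1-8 and ESC lie at or near 0 except for Lrpap1 and low Lrp2, and columns 17-24 show a small number of high cells.

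The 5 genes were mostly found together. All 5 were above 0 in 93.97% of cells of columns 9-16 (interval 90.7 to 96.3%) and in 98.6% of iXEN cells (94.97 to 99.8%). No cell of columns 1-8 held all 5, which allows a share of up to 0.955%. All 5 occurred in 16 cells of columns 17-24 (4.53%), in 1 ESC and in 5 iTSC (3.55%). In columns 9-16, 11 cells held exactly 4 of the genes, and in all 11 the missing gene was *Amn*. The 5 cells of these columns with at most 1 VE marker above 0 held *Dab2* in 0 and *Cubn* in 1 case.

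Against columns 1-8, all 5 genes were at least 4-fold higher in columns 9-16 on the scale of mean TP10k + 0.1, with the same sign on every plate, where 2.14% of 10662 genes were and 1.44% were as much lower. This log2 ratio was 6.29 for *Dab2* (6.14 to 6.44 over the plates), 5.63 for *Amn* (5.39 to 5.73), 5.10 for *Cubn* (4.97 to 5.30), 3.65 for *Lrpap1* (3.63 to 3.68) and 3.50 for *Lrp2* (3.42 to 3.56). Ordered by this ratio, *Dab2* ranked 3, *Amn* 4 and *Cubn* 9 of all genes compared, and *Lrpap1* and *Lrp2* ranked 41 and 45. The pseudocount holds down the ratios of genes near 0 in columns 1-8. *Amn*, *Cubn* and *Dab2* were each in under 10% of cells of columns 1-8. They passed the filter of 10% of cells only through columns 9-16, so a call of lower was hardly open to them. Without that filter, 1.09% of all genes were 4-fold higher and 0.762% lower. The highest values in columns 1-8 were 0.638 TP10k for *Dab2*, 0.234 for *Cubn* and 0.466 for *Amn*, so the blocks overlapped only through low cells of columns 9-16.

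In 2D, all 5 genes were at least 4-fold higher in iXEN than in ESCs, as were 2.31% of 13681 genes, with 1.09% lower. The log2 ratios were 7.01 for *Dab2*, 6.05 for *Amn*, 5.30 for *Cubn*, 4.06 for *Lrp2* and 3.46 for *Lrpap1*. Here too *Amn*, *Cubn* and *Dab2* passed the filter only through iXEN. Without the filter, 1.53% of all genes were 4-fold higher and 0.748% lower. Against iTSC, all 5 were again at least 4-fold higher in iXEN, as were 1.29% of 13450 genes (0.877% were lower), with log2 ratios of 6.26 for *Dab2*, 5.28 for *Cubn*, 4.72 for *Amn*, 3.67 for *Lrpap1* and 3.57 for *Lrp2*. Both comparisons use the same iXEN cells. The 2D plates have no replicate, and culture, plate and cell line cannot be told apart.

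Between columns 9-16 and iXEN none of the 5 genes differed by 4-fold, and across all genes 0.0572% were that much higher and 0.204% lower. *Lrpap1* was higher in columns 9-16 by a log2 ratio of 0.66 (0.53 to 0.84 over the plates). *Dab2* was lower, at -0.72 (-0.89 to -0.57), and so was *Amn*, at -0.46 (-0.76 to -0.34). *Cubn* (-0.20, from -0.33 to 0.02) and *Lrp2* (-0.10, from -0.26 to 0.16) had plates on both sides of 0. The plates split 1 pool, so these ranges do not test 3D against 2D. The 2D cells had more genes above 0, and 3D against 2D is also plates 3, 4 and 5 against plate 9.

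**Figure D2:**
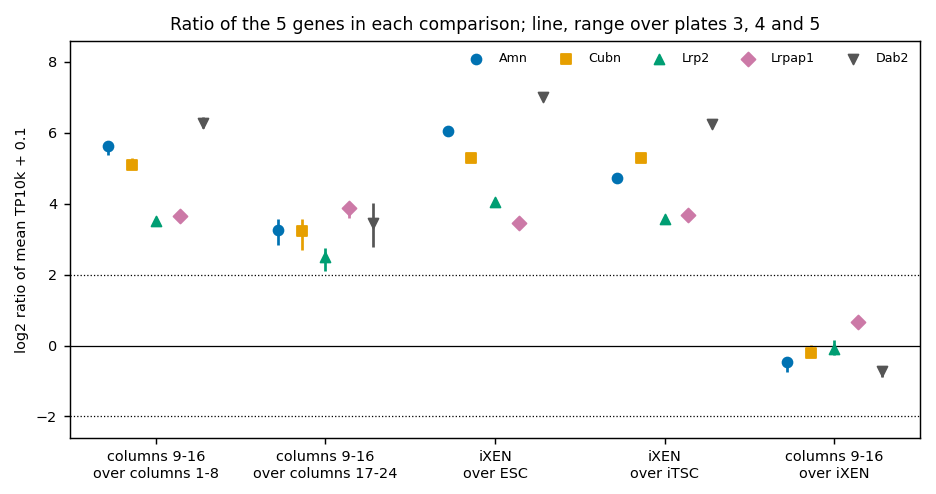
Log2 ratio of mean TP10k + 0.1 (vertical axis) for each gene in the 5 comparisons (horizontal axis); vertical lines span plates 3, 4 and 5 where the 3D pool enters, and dotted lines mark 4-fold. All genes lie above the upper dotted line in the first 4 comparisons and between the dotted lines in the last.

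Against columns 17-24, a comparison that uses the same cells of columns 9-16, all 5 genes were at least 4-fold higher as well, where 1.01% of 10836 genes were and 1.22% were lower. The log2 ratios were 3.87 for *Lrpap1* (3.61 to 4.05 over the plates), 3.45 for *Dab2* (2.77 to 4.02), 3.25 for *Amn* (2.85 to 3.56), 3.22 for *Cubn* (2.71 to 3.57) and 2.49 for *Lrp2* (2.09 to 2.76). *Cubn*, found in 7.65% of cells of columns 17-24, passed the filter only through columns 9-16. *Cubn* values in columns 17-24 fell into separate ranges: 92.35% of cells were at 0, 11 cells lay between 0.0064 and 0.0931 TP10k, 16 lay between 2.02 and 11.5, and none lay between. These 16 are the cells that held all 5 genes, with 4, 8 and 4 of them on plates 3, 4 and 5.

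The cells of columns 17-24 were then grouped by the number of VE markers above 0, which does not use the 5 genes. In cells with 0 or 1 marker, 79.6% of the block, the mean was 0.0616 TP10k for *Amn*, 0.00103 for *Cubn*, 0.0837 for *Lrp2*, 1.14 for *Lrpap1* and 0.0980 for *Dab2*. In 12 cells with 6 to 8 markers the means were 7.68, 5.64, 2.77, 24.2 and 12.2 TP10k, and all 5 genes were above 0 in 12 of 12. These 12 cells, 3.40% of the block, held 59.4% of all *Amn*, 70.2% of all *Cubn* and 64.0% of all *Dab2* in it, but 37.1% of *Lrpap1*. Of 8 cells with 4 or 5 markers, 4 held all 5 genes. The 16 cells with all 5 genes had a summed ExE marker level of 0.944 TP10k in the median against 3.54 in the other cells, and a summed parietal endoderm level of 95.1 against 2.85. Their numbers of genes were alike, 5314.5 and 5404 in the median. Without the 20 cells with at least 4 VE markers, a choice made after seeing the data, the log2 ratios of columns 9-16 over columns 17-24 were 5.06 for *Amn*, 5.10 for *Cubn*, 5.13 for *Dab2*, 4.67 for *Lrpap1* and 3.21 for *Lrp2*. The low *Amn* of iTSC stood beside a small share in 3D, where 26 of the cells of columns 17-24 with 0 or 1 VE marker held *Amn* (9.25%), against 0.955% of columns 1-8.

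**Figure D3:**
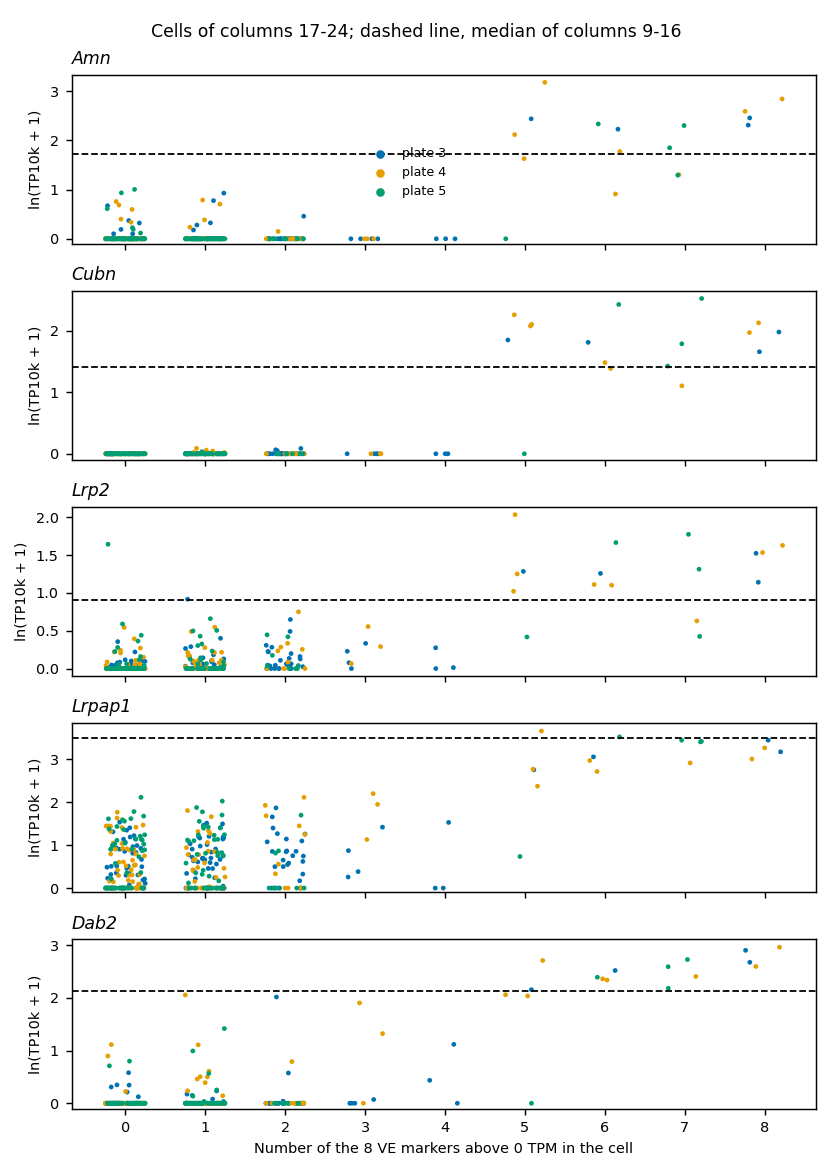
Level of each gene, as ln(TP10k + 1), in the cells of columns 17-24 against the number of the 8 VE markers above 0 in the cell; colours are plates and the dashed line is the median of columns 9-16. All 12 cells with 6 to 8 markers are above 0 for every gene, and cells with 0 to 4 markers are at or near 0 for Cubn.

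Other genes of the uptake pathway, from lists given by role, had smaller ratios than the 5 genes in most cases. Of 12 other lipoprotein receptor family genes compared, 0 were 4-fold higher and 0 lower in columns 9-16 than in columns 1-8. These counts are near the shares over all 10662 genes, of which 2.14% were higher and 1.44% lower. The median log2 ratio of the 12 was -0.06, against -0.04 over all genes. *Lrp10* had the highest ratio of the 12, 1.64. *Vldlr* was at 0.78. Against columns 17-24, *Sorl1*, a sorting receptor of the same family, was lower by a log2 ratio of -3.77, at 0.0997 against 2.63 TP10k.

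Among 6 chaperones of the secretory pathway, calreticulin (*Calr*) was 4-fold higher, by 2.61 on the log2 scale, at 16.3 against 2.58 TP10k. All 6 had ratios above 0, with a median of 1.10 against -0.04 over all genes, of which 2.14% were 4-fold higher. *Mesd*, the chaperone that serves lipoprotein receptor family members beside *Lrpap1*, was at 0.61 (0.34 to 0.80 over the plates). Of 14 endocytic adaptors, 0 were 4-fold higher or lower, near the shares of 2.14% and 1.44% over all genes. The median of the adaptors was 0.07. *Dab1*, the paralog of *Dab2*, was at -1.21. The highest ratio among the 14 adaptors was 0.83, against 6.29 for *Dab2*.

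Clathrin and AP-2, the coat of the endocytic vesicle, were compared next. Their list also held *Dnm1*, *Dnm2*, *Aak1*, *Gak*, *Hip1* and *Hip1r*, which encode neither clathrin nor AP-2. All 13 genes of this list that were compared had ratios above 0 in columns 9-16 over columns 1-8. Of these 13, 0 were 4-fold higher, against 2.14% of all genes. The median of the 13 was 0.63, against -0.04 over all genes. The heavy chain *Cltc* was at 1.48 (1.28 to 1.74), and the AP-2 subunit *Ap2m1* at 0.85. Over columns 17-24, the median of the same genes was 0.05, close to the median of all genes, -0.10. In iXEN over ESC, 12 of 14 were above 0, with a median of 0.51.

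Some endosomal and recycling genes were raised beside the 5 genes. Of 18 compared, 3 were 4-fold higher in columns 9-16 than in columns 1-8, where 2.14% of all genes were, and 17 had ratios above 0. Their median was 0.72, against -0.04 over all genes. Over columns 17-24, 1 of 18 was 4-fold higher, where 1.01% of all genes were, and the median was 0.33 against -0.10. *Myo6*, the motor that carries new endocytic vesicles inward along actin, was higher by 2.58 on the log2 scale, at 1.47 against 0.163 TP10k. *Rab11a*, of recycling endosomes, was higher by 2.29, at 16.7 against 3.34 TP10k, and *Rab5c*, of early endosomes, by 2.06. *Myo6* was also 4-fold higher in the other 3 comparisons, with log2 ratios of 2.03 over columns 17-24, 3.12 for iXEN over ESC and 3.06 for iXEN over iTSC. *Rab11a* was 4-fold higher in both 2D comparisons but at 0.46 over columns 17-24, where its mean was 12.2 TP10k. *Clcn5*, the chloride transporter of endosomes, was at 1.87, under the threshold, and at 2.21 in iXEN over ESC.

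Of the apical brush border genes only 3 of 10 were found in enough cells to compare with columns 1-8. *Slc9a3r1*, the scaffold NHERF1 under the apical membrane, was 4-fold higher by 2.12 on the log2 scale, at 3.54 against 0.739 TP10k. Over all genes 2.14% were 4-fold higher. Over columns 17-24 *Slc9a3r1* was at 1.39. There 0 of 4 brush border genes compared were 4-fold higher, against 1.01% of all genes, with a median of -0.05. *Ezr* was at 0.46. *Vil1*, *Cdhr2* and *Myo7b*, which build microvilli in mature epithelia, were at 0.0107, 0.00427 and 0.000554 TP10k in columns 9-16. Among 10 other uptake receptors, 0 were 4-fold higher than in columns 1-8, near the share of 2.14% over all genes. The transferrin receptor *Tfrc* was lower by -2.71 against columns 1-8, where 1.44% of all genes were 4-fold lower. In iXEN against ESC, where 1.09% of all genes were 4-fold lower, *Tfrc* was lower by -3.71. Its mean in columns 9-16 was 0.0119 TP10k against 0.632 in columns 1-8. The folate receptor *Folr1* was at 1.79.

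Several genes of proteins that the receptors bind were 4-fold higher against columns 1-8, ESC and iTSC, and 1 gene was against columns 17-24. In columns 9-16 over columns 1-8, 5 of 9 ligand genes were 4-fold higher, against 2.14% of all genes: *Tcn2*, which carries vitamin B12, *Apom*, *Clu*, *Plat* and *Ctsb*. Their log2 ratios lay between 2.00 and 2.63. Over columns 17-24 it was 1 of 10, *Apoe* (2.20), with 5 of 10 ratios above 0 and a median of 0.21, against 1.01% of all genes. In iXEN over ESC it was 8 of 14, against 2.31% of all genes, now with *Rbp4*, *Ttr*, *Apob* and *Apoe*. In iXEN over iTSC it was 6 of 13, against 1.29% of all genes: *Tcn2*, *Rbp4*, *Ttr*, *Apoe*, *Apom* and *Plat*. Compared directly, columns 9-16 were lower than iXEN in *Rbp4* (-3.18, 0.135 against 2.03 TP10k), *Ttr* (-2.52, 0.272 against 2.04 TP10k) and *Clu* (-2.04, 0.484 against 2.29 TP10k). *Rbp4* and *Ttr* carry retinol and thyroid hormone, and the megalin pathway takes both up.

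**Figure D4:**
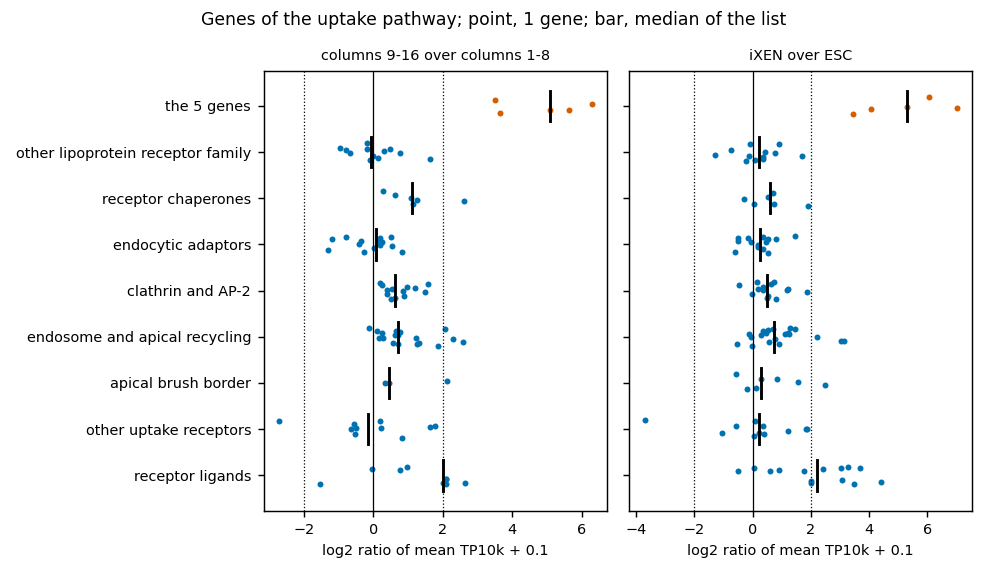
Log2 ratio of mean TP10k + 0.1 (horizontal axis) for the 5 genes and for 8 lists of the uptake pathway (rows), in columns 9-16 over columns 1-8 (left) and iXEN over ESC (right); each point is a gene, bars are medians and dotted lines mark 4-fold. The 5 genes lie beyond nearly all listed genes, and only the ligand list has a median near or above the upper dotted line.

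Among cells of columns 9-16, cubilin varied with megalin and with the adaptor. Over all these cells, and on ln(TP10k + 1), the correlation of *Cubn* with *Dab2* was r = 0.622 (0.533 to 0.703 by plate) and that of *Cubn* with *Lrp2* was r = 0.603 (0.553 to 0.611). *Lrp2* with *Dab2* gave a lower r of 0.390 (0.306 to 0.421). *Amn* with *Cubn* gave r = 0.377, with 0.531, 0.505 and 0.219 on plates 3, 4 and 5. The median over the 10 pairs was 0.358, with 0.459, 0.362 and 0.242 on plates 3, 4 and 5. In iXEN cells it was 0.356, and *Cubn* with *Lrp2* reached r = 0.753. These values describe cells that share plates and a normalization, and cells are not replicates. Pooled over plates, the number of genes in a cell had r between -0.10 and 0.12 with the 5 genes in columns 9-16. In iXEN these r lay between 0.110 and 0.353. Within single plates of columns 9-16 they lay between -0.14 and 0.239, with 0.236, 0.188 and 0.239 for *Lrpap1* on plates 3, 4 and 5.

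The pairs with the chaperone differed among themselves and between plates. *Lrpap1* with *Dab2* gave r = 0.361 in columns 9-16, with 0.512, 0.399 and -0.13 on plates 3, 4 and 5. With *Cubn* it gave 0.288 and with *Amn* 0.0872. *Lrpap1* with *Lrp2*, its client, gave r = 0.0730 in columns 9-16, with 0.0418, 0.164 and -0.20 on plates 3, 4 and 5. Its 4 pairs were positive on plates 3 and 4 and negative on plate 5. In iXEN they lay between 0.142 and 0.334. *Lrpap1* had r = 0.538 with the parietal endoderm list in columns 9-16, with 0.613, 0.688 and 0.153 on plates 3, 4 and 5, and r = 0.621 in iXEN. *Lrp2* had r = 0.212 and 0.190 with the same list. *Lrp2* was lower in cells with more *Pou5f1* (r = -0.34, from -0.38 to -0.27 by plate), while *Lrpap1* with *Pou5f1* gave r = 0.237.

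**Figure D5:**
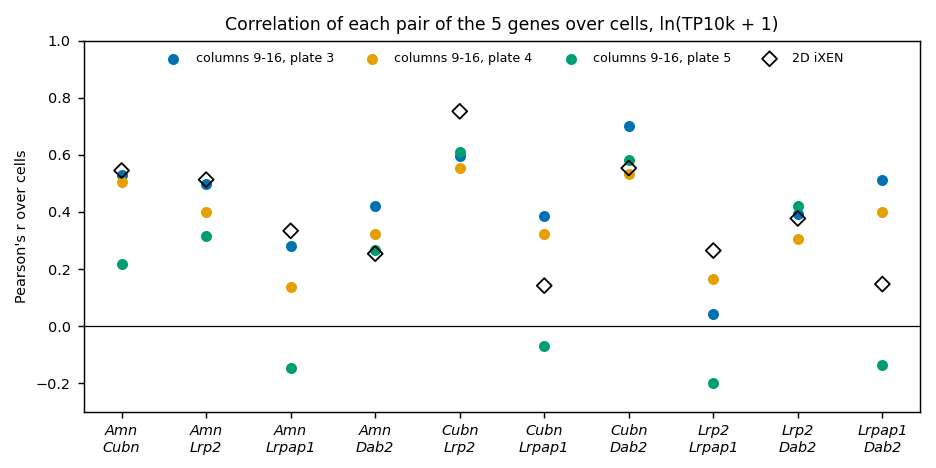
Pearson's r over cells (vertical axis) for the 10 pairs of the 5 genes (horizontal axis); filled points are plates 3, 4 and 5 of columns 9-16 and open diamonds are iXEN. Cubn with Lrp2 and Cubn with Dab2 are above 0.5 in all 4 sets, and the 4 pairs with Lrpap1 are below 0 on plate 5.

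Ranked over all 7903 genes found in at least 25% of cells, by the lowest r of the plates, *Lrp2* was the closest partner of *Cubn* and *Cubn* the closest of *Lrp2*. Both held rank 1 in iXEN too, among 10267 genes. *Cubn* was also the closest partner of *Dab2* in both groups. *Slc9a3r1* stood among the top 3 for *Amn* (0.267), *Cubn* (0.381) and *Dab2* (0.409), each value the lowest r of the plates. *Ifi30*, a thiol reductase of lysosomes, ranked 1 for *Amn* (0.330) and 2 for *Lrp2* (0.475), and *Cldn6*, a tight junction protein, ranked 3 for *Lrp2*. For *Lrpap1* the top 3 were *Dppa5a*, *Htra1* and *Asah1*, with lowest r of 0.428, 0.384 and 0.365. In iXEN its top 3 were *Col4a1*, *Lamb1* and *Pdia3*, which are basement membrane genes and a chaperone. *Myo6* had r = 0.361 with *Cubn* in columns 9-16 and 0.468 in iXEN. *Gata6*, which the iGATA6 line also carries as a transgene, had r between -0.05 and 0.12 with the 5 genes in columns 9-16.

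Across the 12 group means (3 blocks on each of 3 plates, and 3 cultures), the genes most like each member were also ranked, as a description. *Cubn* had *Flrt3*, *Lrp2*, *Col4a1*, *Retreg1* and *Myo6* as the 5 nearest of 10282 genes, with r from 0.9996 to 0.998. *Lrp2* had *Cubn*, *Myo6*, *Flrt3*, *Retreg1* and *Amot*. *Dab2* had *Retreg1*, *Col4a2*, *Vps35*, *Flrt3* and *Myo6*, of which *Vps35* belongs to the retromer of endosomes. *Amn* had *Pth1r*, *Sox17*, *Ifi30*, *Atp6v0a1* and *C2*. *Lrpap1* had *F2r*, *Ckap4*, *Rcn3*, *Nostrin* and *Npl*. The nearest 5 of *Amn* and those of *Lrpap1* shared no gene with the nearest 5 of any other member. The 12 points form a few clusters, so many genes reach such values.

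Cells of columns 9-16 with *Nodal* or *Lefty1* above 0 were compared with the rest. Both genes are from a list of 9 distal and anterior VE genes. Of these 9, 3 had their highest 3D mean in columns 9-16 and 5, with *Nodal* and *Lefty1* among them, in columns 1-8. *Nodal* was above 0 in 19.05% of cells of columns 9-16 and 56.37% of columns 1-8, and *Lefty1* in 14.92% and 59.87%. The split rests on these genes only, and whether it marks distal or anterior VE cells was not tested. The 79 cells with either gene averaged 3.95 TP10k of *Cubn*, 2.11 of *Lrp2* and 9.79 of *Dab2*, against 3.18, 1.62 and 7.50 TP10k in the other cells. The difference had the same sign on plates 3, 4 and 5 for these 3 genes. *Lrpap1* was lower in the 79 cells on every plate, 31.5 against 34.6 TP10k on average. *Amn* was 5.50 against 4.88 TP10k, with the opposite sign on plate 3. Both sets of cells are from the same pool, and each difference is smaller than the SD between cells. That SD was 1.83 TP10k for *Cubn*, 1.14 for *Lrp2*, 4.37 for *Dab2*, 3.81 for *Amn* and 12.9 for *Lrpap1*. The numbers of genes per cell in the 2 sets were not compared.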

How the data were processed

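SMART-seq2 libraries were read as 75-base single reads, and bcl2fastq 2.20 is named in the submitters' processing notes. The authors pseudoaligned reads with kallisto to GRCm38 (Gencode vM16), summed transcripts per gene with tximport, filtered mitochondrial, ribosomal and pseudogenes, and deposited TPM. TPM keeps no read number, so depth per cell is unknown and the number of genes above 0 stood for it.

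Here wells with at least 2500 genes above 0 were kept, TPM was rescaled to 10000 per cell, and group means were compared as log2 ratios with a pseudocount of 0.1 TP10k. Genes found in at least 10% of cells of either group were compared, so a gene rare in a group entered only through the other group. A gene was called at a log2 ratio of 2 or more (4-fold) with 1 sign on plates 3, 4 and 5. The cells kept were 315 of columns 9-16, 314 of columns 1-8, 353 of columns 17-24, 141 iXEN, 142 ESC and 141 iTSC. With 1 sample per condition no test was run. Shares carry exact (Clopper-Pearson) 95% intervals, and a count of 0 is given with the limit of 3 counts. Doublets were not called. Python 3.11.15, numpy 2.4.6, pandas 2.3.3 and scipy 1.17.1 were used. The ratio step was tested on changes planted in the real cells of columns 1-8, and a pooled correlation ranking on a planted partner gene. The ranking by the lowest r of the plates was not tested. All 1931 columns of values were mapped to samples by name. 71 wells held no value above 0, and 0 wells were identical.

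The 5 genes and all lists were chosen with earlier results of these data known. The genes named are the 5, the listed markers and pathway genes, the 5 most like each member over group means, and the 3 closest to each over cells. Alternatives were the minimum of genes, the scale, the pseudocount, the kind of mean, cells chosen by their own markers and leaving out each plate. Some genes of the pathway lists are not reported here and enter no count or median of those lists.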

Additional observations from a re-analysis of the deposited data

Results flagged for a closer look

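Wells of columns 9-16 that fell under the minimum of genes were used in no comparison, yet held the 5 genes more often than the like wells of columns 1-8. Of 68 such wells with a value above 0, with a median of 24 genes each, *Lrpap1* was above 0 in 33.8%, *Cubn* in 29.4%, *Lrp2* in 26.5%, *Dab2* in 23.5% and *Amn* in 14.7%. In 67 wells of columns 1-8, with a median of 10 genes, the shares were 5.97%, 1.49%, 2.99%, 0% and 0% in the same order. The wells of columns 9-16 thus held more genes in the median. No share over all genes was taken in these wells, so the difference cannot be called particular to the 5 genes. Wells of columns 17-24 under the minimum held them in 0 to 6.45% of 31 wells. A count of 0 in 67 wells allows a share of up to 4.48%. These wells carry few genes, and the source of their transcripts was not tested.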

How the results depend on the processing

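All ratios of the 5 genes against another lineage stayed above 0 under the alternatives run, and 5 fell under 4-fold. These came with a pseudocount of 1 TP10k, where *Lrp2* fell to between 1.158 and 1.497 in all 4 comparisons and *Cubn* to 1.78 against columns 17-24, leaving 3 genes at 4-fold there. By construction this pseudocount shrinks ratios of low genes. The median log2 ratio of the 5 genes was then 2.59 (columns 9-16 over columns 1-8), 2.07 (over columns 17-24), 2.97 (iXEN over ESC) and 2.77 (iXEN over iTSC). With a pseudocount of 0.01 it was 8.21, 8.45 and 5.28 for columns 9-16 over columns 1-8, iXEN over ESC and iXEN over iTSC. With means of ln(TP10k + 1) it was 4.03 over columns 17-24, 5.11 for iXEN over ESC and 4.69 for iXEN over iTSC. On TPM as deposited the 2D medians were 5.36 and 4.81, and with minimums of 1000 and 4000 genes the median over iTSC was 4.72 and 4.71. Over columns 17-24 it was 5.06 in cells whose own marker list had the highest mean. In alternatives chosen after seeing the data it was 5.00 in cells whose own list was found most and 5.06 without cells with at least 4 VE markers. Without each plate in turn, the median ranged from 5.00 to 5.16 over columns 1-8, from 3.09 to 3.54 over columns 17-24 and from -0.31 to -0.14 over iXEN.

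The median pair correlation of 0.358 was 0.239 in cells whose own marker list was highest, 0.231 as Spearman's rho, 0.511 on ln(TPM + 1), and 0.280 to 0.409 without each plate in turn. The cause was not tested. Counts over all genes followed the pseudocount. Of all genes compared, 2.14% were 4-fold higher and 1.44% lower in columns 9-16 than in columns 1-8, against 0.375% and 0.122% with a pseudocount of 1 and 5.21% and 5.50% with 0.01. Over columns 17-24 the shares were 1.01% and 1.22%, against 0.175% and 0.111%, and 2.50% and 4.75%, and means of ln(TP10k + 1) took the higher part of the calls from 45.2% to 60.6%. For iXEN over ESC they were 2.31% and 1.09%, against 0.322% and 0.117%, and 6.02% and 4.61%. For iXEN over iTSC they were 1.29% and 0.877%, against 0.238% and 0.0892%, and 3.45% and 4.13%. Between columns 9-16 and iXEN, 7 genes were higher and 25 lower, against 2 and 2 with a pseudocount of 1 and 0.367% and 0.865% of genes with 0.01, and with 38 lower without the filter on low values. No paired analysis was possible because no result comes from a test; for the 3D blocks, which share plates 3, 4 and 5, the ratios within each plate are given as ranges. TPM carry no read number, so shares of cells could not be compared at equal depth. With 1 TPM as the least value, the share of cells with *Cubn* fell in ESCs and iTSC to 2.11% and 1.42%, and that with *Lrp2* to 35.2% and 56.7%.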
